A study of Mus musculus with 8 samples.

Results

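Sox9, Sox8, Wt1, Gata1 and Gata4, 5 transcription factor genes of the Sertoli cell lineage, were followed in RNA-seq of a spermatogenic cell preparation from mouse testes collected 12 days after birth (P12). They were taken by symbol from the 28460 genes of the deposited count table, and all 5 were present and passed the filter on low counts. The table covers 4 libraries of Brg1 conditional knockout testes (Brg1 cKO) and 4 of Brg1 wild-type testes (Brg1 WT), all on a mixed strain background. Brg1, the product of Smarca4, is a catalytic subunit of SWI/SNF, a complex that moves nucleosomes. Which Cre line and exons were used, and how many animals went into a sample, the sources used here do not give. The cells had passed collagenase and trypsin digestion and a sieve, with no marker sort named, and both Sertoli cell and germ cell markers were present in every library.

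Sertoli cells are the somatic nurse cells of the seminiferous tubule. In the fetal gonad SOX9, acting with the related protein SOX8, drives the supporting cells to the Sertoli fate, and WT1 and GATA4 act upstream of and beside them. In the postnatal testis the same factors maintain Sertoli identity and control Sertoli products such as anti-Müllerian hormone. GATA1, known chiefly as a factor of red cell, megakaryocyte, mast cell and eosinophil development, is made in mouse Sertoli cells after birth, and in the adult its level varies with the stage of the tubule. None of the 5 is a marker of germ cells, and in bulk RNA fewer or more cells of a type and less or more RNA per cell cannot be told apart.

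Library depth was between 20456743 and 32596038 estimated counts, and the 5 genes together took 0.0666% to 0.115% of a library. The lowest value of any of the 5 was 1114 estimated counts, for Gata1. Smarca4, the targeted gene, had 111 to 129 CPM in the Brg1 cKO libraries and 338 to 357 CPM in the Brg1 WT libraries. CPM are estimated counts scaled to a common library total with the TMM method. A gene was called higher or lower at an adjusted p under 0.05 in edgeR's quasi-likelihood test, with the adjustment taken over 16059 tested genes.

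Upstream sequence was at hand only for Sox8 and Gata1, and both windows are shown. These genes differed in their result. Per kilobase of the longest coding transcript, Sox8 and Gata1 had 28.1 and 28.6 CPM in Brg1 cKO, and 20.2 and 29.2 CPM in Brg1 WT. The sequences are the 250 bases before the annotated start in RefSeq, build GRCm38.p6, on the minus strand, at chr17:25570687-25570936 for Sox8 and chrX:7967911-7968160 for Gata1. Capitals mark the letters GGGCGG, the GC box bound by Sp1-type factors, and the letters GATA, the core bound by GATA factors, both searched on both strands.
Sox8: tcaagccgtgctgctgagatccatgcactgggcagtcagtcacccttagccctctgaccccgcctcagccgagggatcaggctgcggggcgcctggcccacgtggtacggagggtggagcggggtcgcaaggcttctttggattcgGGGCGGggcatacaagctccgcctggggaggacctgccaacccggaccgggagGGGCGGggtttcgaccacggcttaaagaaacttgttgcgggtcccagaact
Gata1: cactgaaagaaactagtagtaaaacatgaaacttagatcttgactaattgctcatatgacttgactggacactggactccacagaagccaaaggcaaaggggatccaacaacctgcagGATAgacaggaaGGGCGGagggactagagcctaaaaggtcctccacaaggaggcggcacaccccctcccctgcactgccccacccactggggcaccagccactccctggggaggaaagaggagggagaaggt
The Sox8 window held 2 GC boxes and no GATA core, and the Gata1 window held 1 of each. Of 32851 mouse windows of this length, 32.7% held a GC box and 53.6% a GATA core. G and C made up 65.6% of the Sox8 window and 54.0% of the Gata1 window, against a median of 52.4% over all windows. Neither window held the longer GATA words (AGATAA and AGATAG, or the same with T first), which 26.5% of windows held, a SOX word (AACAAT or, in its other form, ACAAAG), which 24.0% held, or the WT1 word GTGGGAG, which 8.25% held. In mouse, Sertoli cells are reported to start Gata1 at a distal first exon, away from the start used in blood cells. The annotated coding starts of Gata1 span 13905 bases, so the window shown need not be the one in use here.

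Of the 5 factors, Sox8 and Gata4 were higher in Brg1 cKO and none was lower. Sox9 and Wt1 had higher means in Brg1 cKO with overlapping libraries and were not called. Gata1 lay at nearly the same mean in both genotypes. Across all tested genes 20.6% were called, 8.79% higher and 11.8% lower, and the median log2 fold change was 0.01, against 0.37 for the 5 factors.

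**Figure D1:**
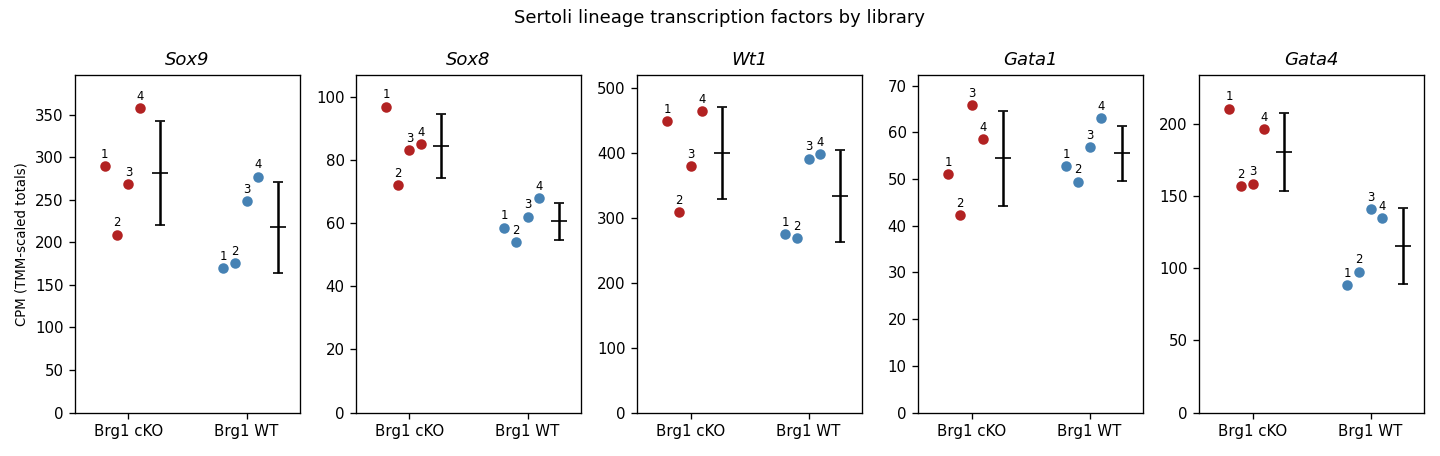
CPM of each factor in every library, with Brg1 cKO left in red and Brg1 WT right in blue. Points carry the replicate number, and the black bar beside each group is its mean and SD (n = 4). The genotypes separate for Sox8 and Gata4 and overlap for Sox9, Wt1 and Gata1.

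The SOX genes encode HMG-box proteins. Sox9 is the central factor of testis determination and stays on in Sertoli cells for life. It had 290, 209, 269 and 358 CPM in Brg1 cKO replicates 1 to 4, against 170, 176, 248 and 277 CPM in Brg1 WT replicates 1 to 4. Brg1 WT replicates 3 and 4 lay above Brg1 cKO replicate 2, so the groups overlapped. The means were 281 ± 61.3 CPM in Brg1 cKO and 218 ± 53.4 CPM in Brg1 WT (SD, n = 4 each). The log2 fold change was 0.37 ± 0.20 (SE), and edgeR gave an adjusted p of 0.222. The 95% interval ran from -0.09 to 0.83, so it holds both no difference and a rise of 0.83 on the log2 scale.

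Sox8, a close relative of Sox9 that acts with it to keep Sertoli cells and spermatogenesis going, had 97.1, 72.2, 83.3 and 85.2 CPM in Brg1 cKO replicates 1 to 4. The Brg1 WT replicates 1 to 4 had 58.7, 54.0, 62.2 and 67.9 CPM. Every Brg1 cKO library lay above every Brg1 WT library, as did those of 11.1% of all tested genes. Libraries failed to overlap in either direction for 26.0% of genes. The means were 84.4 ± 10.2 CPM in Brg1 cKO and 60.7 ± 5.87 CPM in Brg1 WT (SD, n = 4 each), a rise of 0.48 ± 0.10 on the log2 scale (SE, adjusted p = 0.0127, edgeR). It was called in every fit that left out 1 library. GENCODE places an antisense gene, 2810468N07Rik, across Sox8. It has no row in the table. The library kit was strand-specific, and the sources used here do not say whether counting used the strand.

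Wt1, a zinc finger factor without which Sertoli cells lose their identity and polarity, had 448, 309, 379 and 464 CPM in Brg1 cKO replicates 1 to 4 and 275, 269, 391 and 398 CPM in Brg1 WT replicates 1 to 4. Brg1 cKO replicates 2 and 3 lay below Brg1 WT replicates 3 and 4. Means of 400 ± 71.2 CPM in Brg1 cKO and 333 ± 70.8 CPM in Brg1 WT (SD, n = 4 each) differed by 0.26 ± 0.17 on the log2 scale (SE, edgeR adjusted p = 0.297). Its 95% interval ran from -0.13 to 0.65.

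The GATA genes encode zinc finger factors that bind the GATA core. Gata4 is made in Sertoli cells from the fetal gonad onward, and in Leydig and other interstitial cells as well. It had 210, 157, 158 and 196 CPM in Brg1 cKO replicates 1 to 4, against 88.2, 97.4, 141 and 134 CPM in Brg1 WT replicates 1 to 4. No Brg1 WT library reached the lowest Brg1 cKO library. The means of 180 ± 27.1 CPM in Brg1 cKO and 115 ± 26.2 CPM in Brg1 WT (SD, n = 4 each) differed by 0.65 ± 0.17 on the log2 scale (SE, edgeR adjusted p = 0.0290), the steepest of the 5, with a 95% interval of 0.26 to 1.03. The call was lost without Brg1 cKO replicate 1 or 4 or Brg1 WT replicate 1 or 2 (adjusted p = 0.0792, 0.0565, 0.0597 and 0.0751), while the fold change stayed between 0.54 and 0.77 over all fits that left out 1 library.

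Gata1 had 51.0, 42.3, 65.8 and 58.6 CPM in Brg1 cKO replicates 1 to 4 and 52.7, 49.5, 56.9 and 63.1 CPM in Brg1 WT replicates 1 to 4. The highest and the lowest of the 8 values were both from Brg1 cKO. Its means were 54.4 ± 10.1 CPM in Brg1 cKO and 55.5 ± 5.87 CPM in Brg1 WT (SD, n = 4 each). The log2 fold change was -0.03 ± 0.13 (SE), at an edgeR adjusted p of 0.894. The 95% interval of -0.33 to 0.27 leaves room for a modest difference either way.

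Because Gata1 is also a gene of blood cells, markers of those cells were read beside it. Of 11 megakaryocyte, mast cell and eosinophil markers, 2 passed the filter, Fcer1a was at 0 in every library, and the summed level was 2.52 to 3.54 CPM in Brg1 cKO and 2.36 to 2.83 CPM in Brg1 WT, below the level of Gata1 alone in every library. Erythroid markers summed to 10.4 to 101 CPM in Brg1 cKO and 12.9 to 31.4 CPM in Brg1 WT. Over the 8 erythroid markers tested the median log2 fold change was 0.68, with a range of -0.61 to 1.34. With 1 library left out this median was -0.02 to 0.93, lowest without Brg1 cKO replicate 2. Gata1 was lowest in Brg1 cKO replicate 2, the library with the highest erythroid sum. Each of the other factors was also at its lowest of Brg1 cKO in that library. Within Brg1 cKO, the same library had the lowest summed level of other Sertoli cell markers, 9021 CPM. Its germ cell marker sum, 2262 CPM, was the highest of that genotype. The part of blood cells in the level of Gata1 was not tested.

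Per kilobase of the longest coding transcript in GENCODE M21, the order of levels in Brg1 cKO was Wt1, Sox9, Gata4, Gata1 and Sox8, with 129 ± 23.0, 68.0 ± 14.8, 53.1 ± 7.96, 28.6 ± 5.31 and 28.1 ± 3.39 CPM per kilobase. In Brg1 WT the order was the same, with 108 ± 22.9, 52.7 ± 12.9, 33.9 ± 7.72, 29.2 ± 3.09 and 20.2 ± 1.96 CPM per kilobase. Sox9 and Gata4 in both genotypes, Gata1 and Sox8 in Brg1 cKO, and Gata4 and Gata1 in Brg1 WT had overlapping ranges of mean ± SD. With the median coding transcript length the order below Wt1 changed. Sox8 then had 91.0 CPM per kilobase in Brg1 cKO and 65.4 in Brg1 WT. Gata1 had 80.5 CPM per kilobase in Brg1 cKO and 82.1 in Brg1 WT.

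The 4 Brg1 WT libraries were not alike in these genes. In each of the 5, Brg1 WT replicates 1 and 2 lay below replicates 3 and 4. Brg1 cKO replicate 2 was the lowest of its genotype in each of the 5. Summed levels of other Sertoli cell markers split likewise, at 7127 and 7296 CPM in Brg1 WT replicates 1 and 2 and 7828 and 8826 CPM in replicates 3 and 4. The summed Sertoli products and reported target genes did not, being highest of Brg1 WT in replicate 2, at 2983 CPM. Germ cell markers ran the other way, with summed levels of 2755 and 2502 CPM in Brg1 WT replicates 1 and 2 and 2213 and 2262 CPM in replicates 3 and 4. Over the genotypes they summed to 1674 to 2262 CPM in Brg1 cKO and 2213 to 2755 CPM in Brg1 WT. The part of this in the genotype difference was not tested. Leaving out Brg1 WT replicates 1 and 2, the lowest of that genotype in each of the 5, raises the Brg1 WT means by construction. Such a fit also has fewer libraries, so it cannot decide whether the rises hold. Without Brg1 WT replicates 1 and 2, edgeR called none of the 5, with 2 at an unadjusted p under 0.05, while 0.584% of all tested genes were called higher and 2.08% lower. Sox8 and Gata4 then had log2 fold changes of 0.38 and 0.39 (adjusted p = 0.126 and 0.152), and Sox9 and Wt1 had 0.10 and 0.02 (adjusted p = 0.792 and 0.946).

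Sox9 and Wt1 followed each other most closely among the 5. After each gene was centred on its own mean, their log2 CPM differed by a root mean square of 0.10 over the 8 libraries. The Gata1 and Gata4 profiles were farthest apart, at 0.43. Expressed as a ratio, Gata1 over Gata4 was -2.04 to -1.27 on the log2 scale in Brg1 cKO and -1.31 to -0.74 in Brg1 WT, which overlap. Sox8 over Gata1 did not overlap, with log2 ratios of 0.34 to 0.93 in Brg1 cKO and 0.11 to 0.15 in Brg1 WT. Nor did Wt1 over Gata4, with 0.98 to 1.26 in Brg1 cKO and 1.47 to 1.64 in Brg1 WT. The ratios of all other pairs among the 5 overlapped between genotypes. How often ratios of other gene pairs fail to overlap was not computed. These ratios of CPM are not length-corrected and were not tested.

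By the same root mean square measure over all 8 libraries, the genes closest to Sox9 were Zfp945, Zbed3 and Pvrl1 (0.06 to 0.07), and those closest to Wt1 were Mob3b, Tmem200b and Wbscr27 (0.06 to 0.07). Closest to Sox8 were Kbtbd2, Tsc22d1 and Cln8 (0.05 to 0.06). For Gata1 they were Zdhhc24, Phactr1 and Klhl26 (0.05 to 0.07), and for Gata4 Kank2, Gramd1b and Nod1 (0.07 to 0.08). The factors' own spread about their means was 0.19 for Gata1 to 0.41 for Gata4 on the same scale.

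Among 24 Sertoli cell markers outside the 5 factors, 9 rose in Brg1 cKO, Trf fell and the rest were not called, at a median log2 fold change of 0.37. Their summed level was 9021 to 11928 CPM in Brg1 cKO and 7127 to 8826 CPM in Brg1 WT, without overlap. Gdnf, the growth factor that maintains spermatogonial stem cells, had 18.3 ± 1.20 CPM in Brg1 cKO and 8.22 ± 1.60 CPM in Brg1 WT (SD, n = 4 each). Cst12, a cystatin gene, had 254 ± 15.6 CPM in Brg1 cKO and 185 ± 19.0 CPM in Brg1 WT. Without Brg1 WT replicates 1 and 2 the list had a median of 0.25, with 2 members called higher. With 1 library left out 5 to 13 were called, and the count was lowest without Brg1 WT replicate 1 or 2. Trf was not called lower in those fits, nor without Brg1 cKO replicate 3 or Brg1 WT replicate 3.

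Set against those markers, the factors spread to both sides. The fold change of Sox9 stood in the middle, with 12 of the 24 markers above it and 12 below. Gata4 was exceeded by 1 marker and Sox8 by 6. Wt1 was exceeded by 17 and Gata1 by 23, the exception being the transferrin gene Trf.

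As a log2 ratio to the summed markers, Gata1 was -7.76, -7.74, -7.50 and -7.53 in Brg1 cKO replicates 1 to 4. In Brg1 WT replicates 1 to 4 it was -7.08, -7.20, -7.10 and -7.13. The genotypes did not overlap, with means of -7.63 ± 0.13 in Brg1 cKO and -7.13 ± 0.05 in Brg1 WT (SD, n = 4 each). The same held downward for 41.0% of all tested genes, and upward for 0.162%, so the lower ratio is not particular to Gata1. For Sox9, Sox8, Wt1 and Gata4 the ratios overlapped between genotypes. Clu, the clusterin gene, made up 38.4% of the summed level in Brg1 cKO and 36.1% in Brg1 WT.

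**Figure D2:**
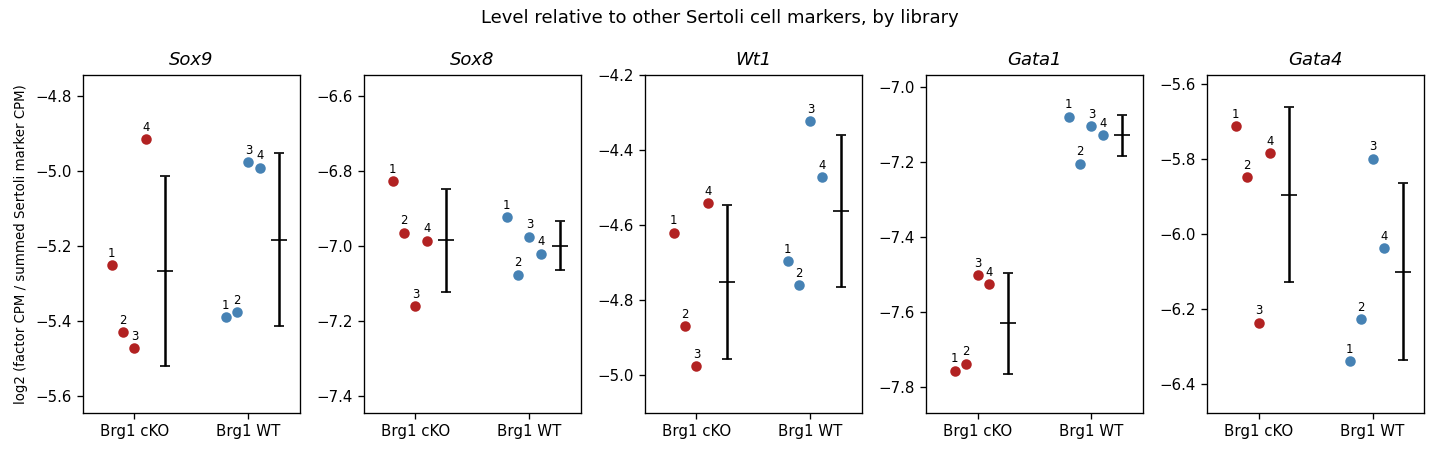
Log2 ratio of each factor to the summed CPM of 24 other Sertoli cell markers in every library, Brg1 cKO left and Brg1 WT right. Points carry the replicate number, black bars are means and SD (n = 4), and each vertical axis spans the same width but does not start at 0. The Gata1 ratios separate by genotype, -7.76 to -7.50 in Brg1 cKO against -7.20 to -7.08 in Brg1 WT, and the ratios of the other 4 factors overlap.

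In the edgeR test with the median of those markers taken as no change, none of the 5 was higher. Gata4 had a log2 fold change of 0.28 (adjusted p = 0.199), Sox8 0.11 (adjusted p = 0.398), Sox9 0.00 (adjusted p = 0.995) and Wt1 -0.10 (adjusted p = 0.655). Gata1 had -0.40 (adjusted p = 0.0299), where 51.7% of all tested genes were called lower. With the median of 12 germ cell markers taken as no change, which lay at -0.36, Sox9, Sox8, Wt1 and Gata4 were all called higher, at 0.73, 0.84, 0.63 and 1.01. Gata1 stood at 0.33 (adjusted p = 0.0542). In that fit 53.5% of all tested genes were called higher and 3.46% lower, and in the fit to the Sertoli marker median 0.479% were called higher. These intervals and p-values leave out the error of the median itself.

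**Figure D3:**
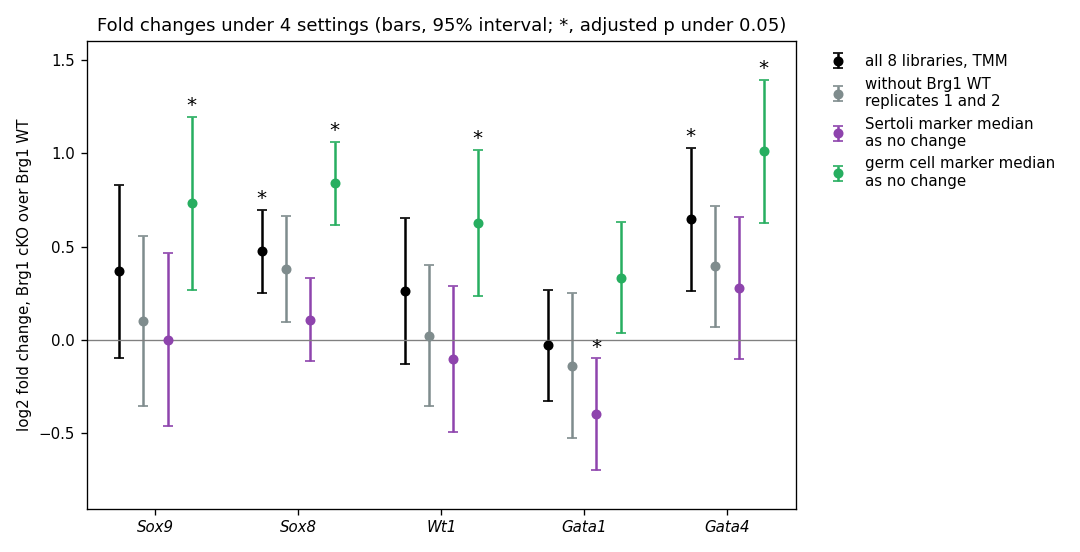
Log2 fold change of Brg1 cKO over Brg1 WT for the 5 factors in 4 fits, with 95% intervals. Asterisks mark an adjusted p under 0.05 in edgeR's quasi-likelihood test. Sox8 and Gata4 are marked with all 8 libraries, none without Brg1 WT replicates 1 and 2, Gata1 alone against the Sertoli marker median, and all but Gata1 against the germ cell marker median.

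Markers of other testis cell types were read beside the factors. Leydig cell markers, for a cell type that makes GATA4, summed to 37.7 to 95.2 CPM in Brg1 cKO and 36.5 to 58.0 CPM in Brg1 WT, with 2 of 9 called higher, Fabp3 and Akr1c14. No Leydig marker was called when Brg1 cKO replicate 1 or Brg1 WT replicate 2 was left out, nor without Brg1 WT replicates 1 and 2. In the last fit 2 had an unadjusted p under 0.05 in edgeR. Without Brg1 cKO replicate 4, 5 were called. The Leydig median log2 fold change was 0.69 with all libraries and 0.68 without Brg1 cKO replicate 1. It was 0.95 without Brg1 WT replicate 2, 1.07 without Brg1 WT replicates 1 and 2, and 0.86 without Brg1 cKO replicate 4. The number of genes called over the whole table also differed between these fits. Peritubular and stromal markers summed to 2134 to 3415 CPM in Brg1 cKO and 1458 to 2512 CPM in Brg1 WT, with 3 of 12 higher. That count was 1 with upper-quartile factors, with no filter and in most fits without 1 library, and 6 without Brg1 cKO replicate 4. Without Brg1 WT replicates 1 and 2 it was 0, with 1 at an unadjusted p under 0.05 in edgeR. The median of these markers was 0.43 with all libraries, 0.57 without Brg1 cKO replicate 4 and 0.40 without Brg1 WT replicates 1 and 2. Among them, Pdgfra had 235 ± 52.5 CPM in Brg1 cKO and 115 ± 25.6 CPM in Brg1 WT. Nr2f2, made in interstitial progenitor cells, had 66.6 ± 19.6 CPM in Brg1 cKO and 38.7 ± 7.74 CPM in Brg1 WT. Its call (adjusted p = 0.0480, edgeR) was lost in 7 of the 8 fits without 1 library, all but that without Brg1 cKO replicate 4. In Brg1 cKO replicate 4 both sums were the lowest of that genotype, whereas Sox9, Wt1 and Gata4 were at 358, 464 and 196 CPM there, the highest or second highest of that genotype. The part of these cells in the rise of Gata4 was not tested.

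Of the 12 germ cell markers 3 fell and none rose, among them Sall4, with 49.2 ± 6.66 CPM in Brg1 cKO and 77.4 ± 7.93 CPM in Brg1 WT. Sall4 is a factor of undifferentiated spermatogonia. Tex14, needed for the bridges between germ cells, had 89.5 ± 13.8 CPM in Brg1 cKO and 126 ± 3.63 CPM in Brg1 WT. None of the 12 was called by edgeR without Brg1 WT replicates 1 and 2, with 2 at an unadjusted p under 0.05 and a median of -0.21. Without Brg1 cKO replicate 2 it called 7, at a median of -0.44. The number of genes called over the whole table also varied with the library left out. DESeq2 called 8 lower, in a test that called 13.2% of all genes lower. No endothelial, erythroid, macrophage, megakaryocyte, mast cell or eosinophil marker was called by edgeR or by DESeq2, and 1 of them, an erythroid marker, had an unadjusted p under 0.05 in edgeR. With 1 library left out at most 1 marker of each of these lists was called. Endothelial markers summed to 169 to 392 CPM in Brg1 cKO and 156 to 245 CPM in Brg1 WT, and macrophage markers to 33.3 to 66.3 CPM in Brg1 cKO and 37.9 to 50.5 CPM in Brg1 WT. Median log2 fold changes were 0.37 over the endothelial markers (range 0.02 to 0.67) and 0.53 over the macrophage markers (range -0.03 to 0.79). With 1 library left out the endothelial median was 0.03 to 0.54, lowest without Brg1 cKO replicate 2. The macrophage median was then 0.22 to 0.75, lowest without Brg1 cKO replicate 1. Pecam1, Hbb-bs and Mrc1, the most abundant endothelial, erythroid and macrophage markers, had adjusted p-values of 0.969, 0.430 and 0.848 in edgeR. Pecam1 and Mrc1 had the lowest fold changes of their lists. Itga2b, the most abundant of the 2 tested megakaryocyte, mast cell and eosinophil markers, had an adjusted p of 0.561.

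Other transcription factors and cofactors of the gonad moved both ways. Of 19 tested, 5 rose, 4 fell and 10 were not called, with a median log2 fold change of 0.15. Lhx2, a LIM homeobox factor, had 1.83 ± 0.30 CPM in Brg1 cKO and 6.85 ± 0.82 CPM in Brg1 WT, and fell by 1.90 ± 0.17 on the log2 scale (SE, edgeR adjusted p = 5.8e-04). Cbx2, a Polycomb subunit needed for testis determination, fell by 0.69 on the log2 scale. Cited2, a coactivator that works with WT1 in the early gonad, rose by 0.46 to 213 ± 23.6 CPM in Brg1 cKO, against a mean of 155 CPM in Brg1 WT. Dmrt1, which keeps Sertoli cells from turning toward the ovarian fate and is also made in germ cells, had 277 ± 32.7 CPM in Brg1 cKO and 281 ± 28.7 CPM in Brg1 WT (adjusted p = 0.899). With the germ cell marker median as no change Dmrt1 turned to 0.34 (adjusted p = 0.0162, edgeR). It was chosen after its values were seen. Without Brg1 WT replicates 1 and 2 this list had 3 lower and none higher, and the call of Cited2 was lost (adjusted p = 0.135). Without Brg1 cKO replicate 1 or Brg1 WT replicate 2 the list had 5 called in place of 9.

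Of 16 Sertoli products and reported target genes of the factors, 3 rose, none fell and 13 were not called, at a median of 0.34. Amh, the hormone gene that SOX9, GATA4 and WT1 act on, had 155 ± 22.9 CPM in Brg1 cKO and 112 ± 10.3 CPM in Brg1 WT (adjusted p = 0.0191). Inhbb, for an inhibin and activin subunit, had 222 ± 20.5 CPM in Brg1 cKO and 171 ± 17.7 CPM in Brg1 WT. Dhh, a hedgehog ligand of Sertoli cells, had 159 ± 18.3 CPM in Brg1 cKO and 111 ± 13.2 CPM in Brg1 WT. The calls of Amh and Inhbb were lost without Brg1 cKO replicate 3 and without Brg1 WT replicate 1 or 2. DESeq2 called 7 of the 16 higher, in a test that called 13.3% of all genes higher. Amh, Inhbb and Dhh also stand in the list of Sertoli markers. Without Brg1 WT replicates 1 and 2 none of the 16 was called by edgeR, with 6 at an unadjusted p under 0.05 and a median of 0.25. With 1 library left out 1 to 5 were called, 1 without Brg1 cKO replicate 3 or Brg1 WT replicate 1 and 5 without Brg1 cKO replicate 2 or 4.

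Genes of the ovarian pathway that SOX9 opposes showed 1 rise, 1 fall and 9 uncalled members of 11. Ctnnb1, for beta-catenin, had 722 ± 30.1 CPM in Brg1 cKO and 609 ± 34.4 CPM in Brg1 WT, a log2 fold change of 0.25 that turned to -0.12 with the Sertoli marker median as no change. The call was also lost without Brg1 cKO replicate 1 or 4 and without Brg1 WT replicate 1, 2 or 3. Lef1, a partner of beta-catenin, had 2.66 ± 0.21 CPM in Brg1 cKO and 5.41 ± 1.29 CPM in Brg1 WT. Foxl2, the defining granulosa cell factor, had at most 2 estimated counts in any library and was not tested.

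Within the gene families, 15 other SOX genes were tested, of which 2 rose and 4 fell. Sox10, a neural crest factor that can replace SOX9 in mouse testis induction, had 2.19 ± 0.51 CPM in Brg1 cKO and 5.55 ± 0.79 CPM in Brg1 WT. Sox2 had 1, 3, 0 and 2 estimated counts in Brg1 cKO replicates 1 to 4 and 14, 14, 39 and 21 in Brg1 WT replicates 1 to 4 (adjusted p = 0.0060). Sox11 had 12.4 ± 1.84 CPM in Brg1 cKO and 19.6 ± 1.14 CPM in Brg1 WT. Sox5, a SoxD gene, rose, with 8.15 ± 1.12 CPM in Brg1 cKO and 5.48 ± 0.68 CPM in Brg1 WT. It was not called without Brg1 cKO replicate 1 or 3 or Brg1 WT replicate 1 or 2, and without Brg1 cKO replicate 1 or Brg1 WT replicate 1 or 2 the SOX list had 3 called, all lower. Of 7 other GATA-type genes, Trps1, a GATA-type repressor, was the 1 called, with 25.8 ± 1.57 CPM in Brg1 cKO and 16.0 ± 3.13 CPM in Brg1 WT. With Brg1 WT replicates 1 and 2 left out, 1 other SOX gene was called, lower, and 1 GATA-type gene, higher.

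**Figure D4:**
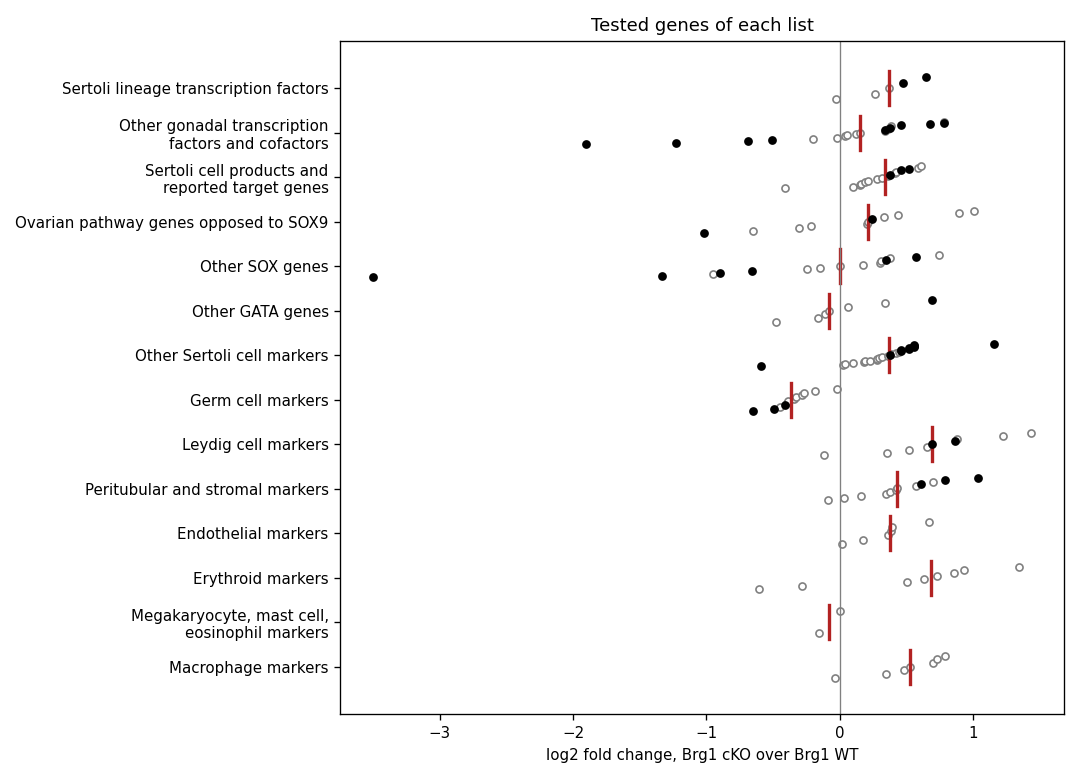
Log2 fold change, Brg1 cKO over Brg1 WT, of each tested gene (1 point each) in each list, with filled points called at an adjusted p under 0.05 and red bars the list medians. The factors have a median of 0.37, as have the other Sertoli cell markers and the endothelial markers, and germ cell markers one of -0.36. Peritubular and stromal, macrophage, erythroid and Leydig cell markers have higher medians, of 0.43, 0.53, 0.68 and 0.69. Megakaryocyte, mast cell and eosinophil markers have one of -0.08. With all 8 libraries a median near 0.37 is thus not particular to Sertoli cell genes. The medians were not equally stable. Without Brg1 cKO replicate 2 the endothelial and erythroid medians were 0.03 and -0.02. In that fit the other Sertoli cell markers had 0.44 and the peritubular and stromal markers 0.43. The leftmost point is Sox2, whose fitted value rests on 0 to 3 estimated counts per Brg1 cKO library.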

How the data were processed

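The authors deposited 1 table of estimated counts, with a row per gene symbol and no scaling for depth or gene length. Kallisto 0.42.5, edgeR and the build mm9 are named per the submitters' processing notes, and the sources used here do not name the annotation. Groups and replicate numbers came from the sample titles. Of the values 49.6% were not whole, and all were rounded. Genes were filtered with filterByExpr, normalized with TMM and tested with edgeR 4.0.16 (robust quasi-likelihood fit, genotype the only term, R 4.3.3), with Benjamini-Hochberg adjustment. The fit was tested on simulated data. Standard errors are the absolute log2 fold change over the square root of F. Profiles used log2 CPM with a prior count of 2. Alternatives were DESeq2 1.42.0, limma-voom (limma 3.58.1), other factors and filters, libraries left out, a replicate block and other levels taken as no change. Genes named were the 5 factors, Smarca4, up to 4 called genes per pathway or family list and 2 per marker list by smallest adjusted p, or the most abundant where none was called, and the 3 nearest profiles per factor. One gene that this rule names is not reported here. Clu, Trf, Foxl2, Fcer1a and Dmrt1 were named outside it, after their values were seen. The factors and lists were chosen with earlier results of these data known. All libraries differed by more than sampling noise (chi-square per degree of freedom at least 20.2). Gene lengths, starts and upstream windows came from GENCODE M21 and RefSeq of a later build.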

Additional observations from a re-analysis of the deposited data

How the results depend on the processing

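Sox8 was called in 16 of 18 alternative fits and Gata4 in 11 of 18. DESeq2, limma-voom, other size factors and other filters changed no call among the 5 factors. In fits that left out 1 library the log2 fold change ranged from 0.23 to 0.51 for Sox9, 0.40 to 0.55 for Sox8, 0.18 to 0.37 for Wt1, -0.13 to 0.08 for Gata1 and 0.54 to 0.77 for Gata4. In these fits 1 or 2 factors, 20 to 45 genes of the other lists (36 with all libraries) and 1608 to 3477 genes of the table (3312 with all libraries) were called. Gata1, never called there, had 0.0018, 0.077 and 0.038 without Brg1 cKO replicate 1, Brg1 cKO replicate 2 and Brg1 WT replicate 4.

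Without Brg1 WT replicates 1 and 2, 438 genes were called, 8 in the other lists and 0 of the factors, with Sox8 at 0.38 and Gata4 at 0.39. This fit has fewer samples. No pairing of samples is stated. Correlations of deviations were -0.37 to 0.15 for same-numbered libraries and -0.27 to 0.31 for the others. These values cannot show whether the samples were paired. With the replicate block 1914 genes were called and 1 factor, Gata4 standing at 0.66 (adjusted p = 0.0621). Taking the Sertoli marker median as no change gave 8383 genes and 1 factor, with Sox8 at 0.11, Wt1 at -0.10, Gata1 at -0.40 and Gata4 at 0.28. The germ cell marker median gave 9152 genes, 83 in the other lists and 4 factors, with Sox9 at 0.73, Wt1 at 0.63 and Gata1 at 0.33. These shifts follow from the level set to 0.

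Of the called genes named by rule from the lists, Ctnnb1 (-0.12) turned with the Sertoli median. Of the 15 genes of similar profile, 6 turned with the Sertoli median, 1 with the germ cell median, 2 without Brg1 WT replicates 1 and 2, and 0 to 2 with 1 library left out. Uncalled markers that turned were Pecam1 (-0.028 by limma-voom, -0.030 with the block, -0.16 without Brg1 WT replicates 1 and 2, -0.35 with the Sertoli median, and -0.29 to 0.17 with 1 library left out, below 0 also without Brg1 WT replicate 1, at -0.12), Hbb-bs (-0.032 to 1.19 with 1 library left out), Itga2b (0.21 with the germ cell median) and Mrc1 (0.33 with the germ cell median, 0.083 without Brg1 WT replicates 1 and 2, and -0.087 to 0.042 with 1 library left out). The cause of these turns was not tested. Depth sets little limit for the 5 factors and a strong one for Sox2, Foxl2 and the megakaryocyte, mast cell and eosinophil markers, most of which stayed below the filter.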
